A study of Homo sapiens with 36 samples.

Results

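The genes described here are 10 members of the Notch pathway out of 61805 genes identified in a count table of 36 polyadenylated RNA libraries. They are the ligands JAG1, JAG2 and DLL1, the receptors NOTCH1, NOTCH2 and NOTCH3, the DNA-binding factor RBPJ and the target genes HES1, HES4 and HEY1. They were chosen by symbol with earlier results of these libraries known, among them a lower JAG1 level in LNCaP lines carrying a TRIM33 guide in the vehicle DMSO. Those JAG1 values are therefore given as a description, with no test. The libraries fall into 12 groups of 3. The line 42D, a derivative of LNCaP that tolerates the antiandrogen enzalutamide, carried sgT33-5 or NT3. LNCaP, an androgen-dependent prostate cancer line first grown from a lymph node deposit, was sampled as sgT33-5, as sgT33-5_MC_C2 and sgT33-5_MC_F2 (C2 and F2 from here on), and as NT3. Each of these 6 lines was given 5 nM of R1881, a synthetic androgen, or DMSO, for 6 h after 3 days in charcoal-stripped serum. Going by the series title, sgT33-5 is taken here for a guide targeting TRIM33, a chromatin-bound E3 ubiquitin ligase, and NT3 for a non-targeting guide. All samples carry the genotype label tumor. The labels state neither whether a line is a single clone, nor whether the guide lines share an origin, nor whether replicates came from separate cultures, so p-values measure the spread between these libraries.

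Notch signalling passes between touching cells. A ligand of the Jagged or Delta family on one cell binds a Notch receptor on its neighbour, and successive cleavages, the last by gamma-secretase, free the intracellular part of the receptor. That fragment enters the nucleus, joins RBPJ and Mastermind-like coactivators on DNA, and switches on genes of the HES and HEY families, which encode transcriptional repressors. In the prostate the pathway is known for its part in the fates of basal and luminal cells.

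Library totals were 13900744 to 19793268 counts. TRIM33 mRNA was 72.7 to 74.6 CPM (counts scaled to the library total, as adjusted by TMM) in 42D sgT33-5 with R1881, against 102 to 109 CPM in NT3, and 54.8 to 59.4 CPM with DMSO, against 79.4 to 89.0 CPM in NT3. In LNCaP it was 38.7 to 66.3 CPM in the 9 guide libraries with R1881, against 123 to 129 CPM in NT3, and 34.2 to 53.2 CPM with DMSO, against 89.0 to 95.7 CPM in NT3. All 9 luminal prostate markers examined exceeded 1 CPM on average in both cell lines, and all 4 basal markers and all 5 leukocyte markers stayed under 1 CPM. Summed over 6 neuroendocrine markers the level was 124 to 154 CPM in 42D and 39.4 to 89.2 CPM in LNCaP, with INSM1 at 0 in both, and the part of such cells in the differences between lines was not tested. Of 5 endothelial markers 1 exceeded 1 CPM in each cell line, KDR in 42D and VWF in LNCaP, with all 5 summed at 1.63 to 3.40 CPM in 42D and 8.21 to 22.9 CPM in LNCaP. Of 5 fibroblast markers 3 did, summed at 26.1 to 36.2 CPM in 42D and 23.1 to 38.6 CPM in LNCaP. The share of counts from mitochondrial genes was 2.14% to 2.40% in 2 LNCaP libraries (sgT33-5 DMSO replicate 3 and sgT33-5 R1881 replicate 1), 4.16% to 6.66% in the other 22 and 2.94% to 4.59% in 42D. Calls that end without those 2 libraries are named beside the result.

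All 10 genes passed the expression filter in every fit. A gene is said to have risen or fallen where the Benjamini-Hochberg adjusted p of edgeR's quasi-likelihood test, taken over all genes tested, was under 0.05. With R1881 against DMSO, the 42D lines changed in the same 4 members, JAG1, NOTCH2, HES1 and HEY1, all of which rose, in sgT33-5 (27.3% of all genes were called there) and in NT3 (25.3%). In LNCaP, R1881 raised JAG1, HES1 and HEY1 in sgT33-5 (background 12.5%), JAG1 in C2 (5.66%), JAG1, HEY1 and RBPJ in F2 (10.4%), where JAG2 fell, and JAG1, HEY1 and RBPJ in NT3 (13.2%). The median log2 change of the 10 members ran from -0.15 in C2 to 0.24 in LNCaP sgT33-5, against -0.01 to 0.00 over all genes tested. The DMSO libraries of the LNCaP lines are those in which the JAG1 difference was already known, so the JAG1 calls in LNCaP are not independent of the choice of genes. The members were picked with results known, so nothing particular to them is read from these counts.

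Between guide lines and NT3 with R1881, 0 of 10 members were called in 42D sgT33-5 (0.513%). JAG2 rose and JAG1 fell in LNCaP sgT33-5 (3.04%), JAG2 and NOTCH1 rose while JAG1 and NOTCH3 fell in C2 (23%), and JAG2 rose and JAG1 fell in F2 (13.4%). The JAG1 decrease in these lines was already known in DMSO, so its calls are not independent of the choice of genes. With DMSO, and with JAG1 left out of the LNCaP counts, 0 of 10 members were called in 42D sgT33-5 (background 1.13%) and 0 of 9 in LNCaP sgT33-5 (1.4%). JAG2, NOTCH1 and HES4 rose in C2, 3 of 9 against 18.2%, and JAG2 and NOTCH1 rose in F2, 2 of 9 against 16.7%. Where edgeR called no member, an unadjusted p under 0.05 was reached by JAG1 and HES1 in 42D with R1881, by JAG1 in 42D with DMSO, and by DLL1 and NOTCH3 in LNCaP sgT33-5 with DMSO. DESeq2 called HES1 in the first of these comparisons, 0 members in the second and NOTCH3 in the third. With the replicate number as a block, which pairs the libraries of the first, edgeR called JAG1 and HES1 higher there. Over all genes it then called 331 in that comparison, against 79 without the block. The median log2 difference of the members ran from -0.22 in LNCaP sgT33-5 to 0.32 in C2, both with DMSO and with JAG1 included, against -0.01 to 0.00 over all genes tested.

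The size of the R1881 response was compared between each guide line and NT3 as an interaction. In LNCaP, with JAG1 left out because its DMSO side was known, 0 of 9 members differed for sgT33-5 (background 0%), C2 (0.689%) or F2 (0%), and in 42D 0 of 10 differed for sgT33-5 (0.123%). DESeq2 also called 0 members in each. JAG2 and DLL1 had an unadjusted p under 0.05 for LNCaP sgT33-5, and no member did in the other 3. Over all genes, 1206, 978, 454 and 1110 had such a p for LNCaP sgT33-5, C2, F2 and 42D sgT33-5, where DESeq2 called 0, 156, 6 and 70. The libraries of NT3 serve in several of these comparisons, so the guide lines' results are not independent of one another.

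The cell lines themselves differed in most genes. Among control lines with R1881, DLL1, NOTCH1, NOTCH2, NOTCH3, HES1 and HEY1 were higher in 42D than in LNCaP and JAG1 was lower, 7 of 10 against a background of 68.9%. With DMSO the same genes apart from NOTCH2 made 6 of 10 against 68.1%. The members' median log2 difference was 0.47 with R1881 and 0.39 with DMSO, against 0.00 over all genes tested. Shares this near the background are no result about Notch genes. The R1881 response in NT3 was larger in 42D than in LNCaP for JAG1, NOTCH2 and HES1, 3 of 10 against 3.85% of all genes. The LNCaP NT3 DMSO libraries, whose high JAG1 level was part of the known result, enter that response and the DMSO comparison above. The effect of sgT33-5 differed between the cell lines for JAG1 with R1881 (1.32% of all genes were called), whose LNCaP decrease in DMSO was already known. In DMSO it differed for 0 of 9 members by edgeR and 0 by DESeq2, with an unadjusted p under 0.05 for NOTCH3 (0.797% of all genes were called, 1934 had an unadjusted p under 0.05, and DESeq2 called 240).

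JAG1, on chromosome 20 at 10637684 to 10673999 (minus strand, GRCh38), encodes a Jagged ligand that spans the membrane of the signal-sending cell. Its level differed between treatments and between cell lines, and in LNCaP between the guide lines and NT3, where the decrease with DMSO was already known. In 42D, its level was 78.6, 78.2 and 75.0 CPM in the sgT33-5 libraries with R1881, against 32.2, 28.9 and 24.3 CPM with DMSO. In 42D NT3 it was 69.0, 65.8 and 63.3 CPM with R1881, against 24.9, 20.3 and 23.5 CPM with DMSO. All R1881 libraries of either 42D line lay far above all DMSO libraries of both. The log2 fold change was 1.44 (SE 0.08, adjusted p = 2.06e-11) in sgT33-5 and 1.54 (SE 0.08, adjusted p = 1.59e-11) in NT3, a rise to 2.72 and 2.92 times the DMSO level. In bulk RNA, as here, fewer cells with a transcript and less transcript per cell cannot be told apart.

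In LNCaP the JAG1 level with R1881 was 248, 286 and 255 CPM in sgT33-5, against 165, 167 and 129 CPM with DMSO. It was 205, 215 and 200.1 CPM in C2 with R1881, against 145, 150.4 and 134 CPM with DMSO, and 261, 335 and 239 CPM in F2 with R1881, against 174, 197 and 133 CPM with DMSO. The NT3 libraries had 550.1, 571 and 445 CPM with R1881, against 343, 370.2 and 290.2 CPM with DMSO. In each of these 4 lines the 3 R1881 libraries lay above the 3 DMSO libraries. The rise was 0.77 (SE 0.15, adjusted p = 0.00129) in sgT33-5, 0.52 (SE 0.15, adjusted p = 0.0444) in C2, 0.72 (SE 0.15, adjusted p = 0.00235) in F2 and 0.64 (SE 0.14, adjusted p = 0.00446) in NT3, on the log2 scale. These p-values use the DMSO libraries whose lower JAG1 level in the guide lines was known when the genes were chosen, and are not independent of that choice. In C2 the adjusted p was 0.0854 without the filter on low counts and ran from 0.0732 to 0.146 with each of the 6 C2 libraries left out in turn. Replicate 3 was the lowest of its group for JAG1 in 7 of 8 LNCaP groups and 3 of 4 groups of 42D.

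Set against NT3, the LNCaP guide lines had less JAG1 at either treatment. With R1881, the 9 guide libraries lay between 200.1 and 335 CPM, all below the lowest NT3 library at 445 CPM. The log2 fold change against NT3 was -0.99 (SE 0.15, adjusted p = 0.000632) in sgT33-5, -1.33 (SE 0.15, adjusted p = 1.88e-06) in C2 and -0.91 (SE 0.15, adjusted p = 0.000284) in F2, so the NT3 mean was 1.98, 2.52 and 1.88 times as high. The decrease in these lines was already known in DMSO, so these p-values are not independent of the choice of genes. In DMSO, the setting in which the decrease was already known, the log2 differences were -1.12 (SE 0.15), -1.22 (SE 0.15) and -0.99 (SE 0.15), again with no overlap of libraries. Without NT3 DMSO replicate 3 the C2 difference was -1.32. The R1881 response of JAG1 differed from that of NT3 by 0.13 (SE 0.21), -0.11 (SE 0.21) and 0.08 (SE 0.21) in sgT33-5, C2 and F2, also a description with no test, since it is built on the known DMSO values.

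In 42D the guide line and its control were closer and the order was the other way round. With R1881 the 3 sgT33-5 libraries lay above the 3 NT3 libraries for JAG1, by 0.22 (SE 0.07, adjusted p = 0.367) on the log2 scale, and with the replicate number as a block, which pairs these libraries, the adjusted p was 0.0206. It was 0.0162 without the filter on low counts, a fit that called more of all genes than the filtered fit in every comparison. With DMSO the libraries overlapped and the difference was 0.32 (SE 0.09, adjusted p = 0.111), a value that passed the threshold without the filter (adjusted p = 0.00150) and without 42D sgT33-5 DMSO replicate 3 (adjusted p = 0.00859). The effect of sgT33-5 on JAG1 with R1881 differed between 42D and LNCaP by 1.22 (SE 0.19, adjusted p = 0.000574), a p-value not independent of the choice of genes. In DMSO that difference was 1.43 (SE 0.21), a description only, since its LNCaP side was known. Between the control lines, JAG1 was 7.91 times lower in 42D than in LNCaP with R1881 (log2 -2.98, SE 0.14, adjusted p = 4.03e-16) and 14.6 times lower with DMSO (log2 -3.87, SE 0.16, adjusted p = 1.08e-17). The R1881 response in 42D was the larger by 0.88 (SE 0.20, adjusted p = 0.00970) on the log2 scale. Both of the last comparisons use the LNCaP NT3 DMSO libraries, whose high JAG1 level was part of the known result. The highest 42D library, at 78.6 CPM, was still below the lowest LNCaP library, at 129 CPM.

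**Figure D1:**
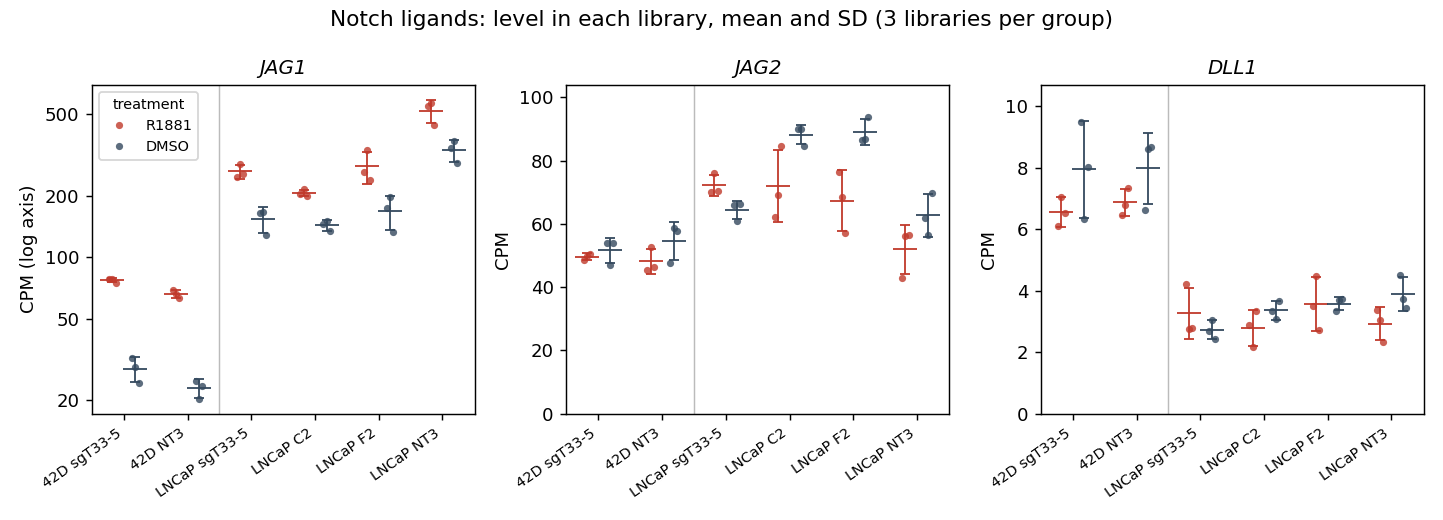
Levels of the ligands JAG1 (log axis), JAG2 and DLL1 in CPM, 1 point per library, with the mean and SD of each group of 3; red is R1881, blue is DMSO. JAG1 is highest in LNCaP NT3, lower in the 3 LNCaP guide lines and lowest in 42D, with R1881 above DMSO in each line, while DLL1 is higher in 42D.

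JAG2, the second Jagged ligand (chromosome 14, 105140982 to 105168824, minus strand), did not follow JAG1. In LNCaP with R1881 it was 70.2, 76.1 and 70.3 CPM in sgT33-5, 62.2, 69.1 and 84.5 CPM in C2 and 76.4, 68.5 and 57.1 CPM in F2, against 43.0, 56.3 and 56.4 CPM in NT3. With DMSO it was 65.9, 61.1 and 66.3 CPM in sgT33-5, 90.0, 90.0 and 84.8 CPM in C2 and 86.5, 87.0 and 93.7 CPM in F2, against 61.8, 56.4 and 69.9 CPM in NT3. The C2 and F2 libraries therefore stood above NT3 at both treatments, and those of sgT33-5 only with R1881. The log2 fold change with R1881 was 0.48 (SE 0.11, adjusted p = 0.0208) in sgT33-5, 0.48 (SE 0.11, adjusted p = 0.00333) in C2 and 0.37 (SE 0.11, adjusted p = 0.0300) in F2. In DMSO the value was 0.04 (SE 0.11, adjusted p = 0.924) in sgT33-5, 0.50 (SE 0.11, adjusted p = 0.00304) in C2 and 0.51 (SE 0.11, adjusted p = 0.00277) in F2. The calls of C2 at both treatments and of F2 with DMSO held with each library left out, while those of sgT33-5 and F2 with R1881 did not.

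For sgT33-5 with R1881, the adjusted p for JAG2 was 0.0810 without the 2 libraries of low mitochondrial share, 0.132 without NT3 R1881 replicate 1, 0.0675 without sgT33-5 R1881 replicate 1 and 0.0805 without its replicate 2. For F2 it was 0.0977 in a fit of the F2 and NT3 libraries alone, 0.156 without NT3 R1881 replicate 1, 0.154 without F2 R1881 replicate 1 and 0.0863 without F2 R1881 replicate 2. NT3 R1881 replicate 1 held the lowest JAG2 level of all LNCaP libraries. R1881 lowered JAG2 in F2 (log2 -0.41, SE 0.11, adjusted p = 0.0141), a call that ended without F2 DMSO replicate 3 (adjusted p = 0.0719) or F2 R1881 replicate 3 (adjusted p = 0.120). The responses of the other 5 lines ran from -0.30 to 0.16 and were not called. They passed in C2 without C2 R1881 replicate 3 (adjusted p = 0.0243), in 42D NT3 without its DMSO replicate 1 (0.0146), and in C2 and LNCaP NT3 without the filter on low counts (0.0339 in C2 and 0.0211 in NT3). In 42D, JAG2 lay between 45.4 and 58.6 CPM over all 12 libraries, and it was not called between the guide line and NT3 or between 42D and LNCaP, where the difference was -0.11 (SE 0.11, adjusted p = 0.400) with R1881 and -0.20 (SE 0.11, adjusted p = 0.102) with DMSO. The DMSO value was called in a fit of those libraries alone (adjusted p = 0.0460) and without the filter on low counts (0.0141).

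DLL1, a Delta-like ligand (chromosome 6, 170282206 to 170306565, minus strand), was low throughout and set apart the cell lines. In NT3 with R1881 its level was 6.47, 6.79 and 7.35 CPM in 42D, against 3.38, 3.06 and 2.34 CPM in LNCaP. With DMSO it was 6.63, 8.62 and 8.67 CPM in 42D, against 4.50, 3.73 and 3.43 CPM in LNCaP. The libraries of the cell lines did not overlap. DLL1 was 2.34 times as high in 42D with R1881 (log2 1.23, SE 0.18, adjusted p = 3.17e-07) and 2.03 times as high with DMSO (log2 1.02, SE 0.17, adjusted p = 2.51e-06). Neither R1881 nor a guide moved it past the threshold in any line, with log2 changes of -0.42 to 0.24 for R1881 and -0.51 to 0.29 for the guides, apart from the R1881 response of 42D sgT33-5 without its DMSO replicate 2 (adjusted p = 0.0397). DLL1 held 35 to 155 counts per library and overlaps FAM120B on the opposite strand, which held 447 to 947; whether the counting used the strand is not given in the sources used here, and what part FAM120B reads have in the DLL1 counts was not tested.

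The receptors are large membrane proteins whose intracellular part is the signal. By the test defined above, NOTCH2 (chromosome 1, 119911553 to 120100779, minus strand) was the only receptor called for R1881, and only in 42D. In 42D it was 169, 180.4 and 205 CPM in sgT33-5 with R1881, against 116, 116 and 130.2 CPM with DMSO. In 42D NT3 it was 213, 189 and 209.7 CPM with R1881, against 132, 113 and 144 CPM with DMSO. All R1881 libraries lay above all DMSO libraries. The rise was 0.62 (SE 0.09, adjusted p = 0.000292) in sgT33-5 and 0.67 (SE 0.09, adjusted p = 0.000153) in NT3.

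In LNCaP the NOTCH2 level stayed between 128 and 172 CPM over 24 libraries, with log2 responses of -0.07 to 0.13, none called. The response in NT3 was larger in 42D than in LNCaP by 0.52 (SE 0.13, adjusted p = 0.0165). That call ended without LNCaP NT3 DMSO replicate 3 (adjusted p = 0.0666) or LNCaP NT3 R1881 replicate 2 (adjusted p = 0.0525). NOTCH2 was higher in 42D than in LNCaP with R1881 (log2 0.39, SE 0.09, adjusted p = 0.000419), and not called with DMSO (log2 -0.13, SE 0.09, adjusted p = 0.221). No guide line differed from NT3 past the threshold. The NOTCH2NL genes are near-identical partial copies of NOTCH2, and reads may be shared between them; their summed counts were 50 to 229 per library, against 1625 to 3422 for NOTCH2.

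NOTCH1 (chromosome 9, 136494433 to 136546048, minus strand) was higher in C2, and in F2 with DMSO, than in NT3. With R1881 it was 28.0, 35.96 and 39.4 CPM in C2 and 23.7, 25.9 and 19.8 CPM in F2, against 18.8, 22.0 and 19.6 CPM in NT3. With DMSO it was 41.5, 39.5 and 32.1 CPM in C2 and 25.6, 29.4 and 32.7 CPM in F2, against 19.5, 17.3 and 24.9 CPM in NT3. C2 and NT3 did not overlap at either treatment, nor did F2 and NT3 in DMSO. The log2 fold change was 0.78 (SE 0.15, adjusted p = 0.000396) in C2 with R1881, 0.88 (SE 0.15, adjusted p = 0.000162) in C2 with DMSO and 0.51 (SE 0.15, adjusted p = 0.0195) in F2 with DMSO. The F2 call ended without NT3 DMSO replicate 1 (adjusted p = 0.0899), NT3 DMSO replicate 2 (0.103), F2 DMSO replicate 2 (0.0510) or F2 DMSO replicate 3 (0.0959).

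The LNCaP line sgT33-5, by contrast, had 18.8, 21.4 and 21.7 CPM of NOTCH1 with R1881 and 21.6, 16.1 and 19.0 CPM with DMSO, which overlap NT3. NOTCH1 was higher in 42D than in LNCaP among control lines, by 0.54 (SE 0.16, adjusted p = 0.00305) with R1881 and 0.78 (SE 0.15, adjusted p = 5.66e-05) with DMSO. Within 42D its mean was 26.9 ± 2.68 CPM with R1881 and 32.6 ± 4.20 CPM with DMSO in sgT33-5, and 29.3 ± 2.27 CPM and 35.3 ± 6.87 CPM in NT3 (SD, n = 3). The R1881 response was not called, at -0.27 (SE 0.13, adjusted p = 0.158) in sgT33-5 and -0.25 (SE 0.13, adjusted p = 0.201) in NT3. With the replicate number as a block, which pairs the libraries in both lines, it was called in each, at adjusted p = 0.000780 in sgT33-5 and 0.00194 in NT3. Without the filter on low counts it was also called, at adjusted p = 0.0112 in 42D sgT33-5 and 0.0155 in 42D NT3. The NOTCH1 response of LNCaP F2, at -0.35 on the log2 scale (adjusted p = 0.152), was called without that filter too (0.0275).

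NOTCH3 (chromosome 19, 15159038 to 15200995, minus strand), known as the receptor of vascular smooth muscle and also made by many epithelial tumours, was higher in 42D. In NT3 with R1881 its level was 92.6, 90.7 and 95.2 CPM in 42D, against 63.1, 71.9 and 51.2 CPM in LNCaP. With DMSO it was 89.5, 91.0 and 118 CPM in 42D, against 52.5, 65.4 and 56.6 CPM in LNCaP. Every 42D library lay above every LNCaP library. The difference was 0.58 (SE 0.14, adjusted p = 0.000584) with R1881 and 0.77 (SE 0.14, adjusted p = 2.01e-05) with DMSO. Among LNCaP lines, NOTCH3 fell in C2 with R1881, to 34.0, 41.1 and 42.1 CPM, a log2 change of -0.66 (SE 0.15, adjusted p = 0.00357). In DMSO the C2 libraries, at 43.5, 47.2 and 39.2 CPM, and those of sgT33-5, at 45.2, 41.1 and 35.8 CPM, also lay below NT3 without passing the threshold. The log2 difference was -0.42 (SE 0.15, adjusted p = 0.0663) in C2 and -0.51 (SE 0.15, adjusted p = 0.128) in sgT33-5. DESeq2 called both, at adjusted p = 0.0198 in C2 and 0.0234 in sgT33-5, as did a fit of the libraries compared alone, at 0.00322 in C2 and 0.0144 in sgT33-5. For sgT33-5 with R1881 the value was -0.37 (SE 0.15, adjusted p = 0.235), and 0.0426 for the adjusted p with the replicate number as a block, which pairs those libraries. Without the filter on low counts the effect of sgT33-5 on NOTCH3 was called different between cell lines, at adjusted p = 0.000117 with R1881 and 0.000295 with DMSO. F2 overlapped NT3 at both treatments, and R1881 moved NOTCH3 past the threshold in no line.

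RBPJ (chromosome 4, 26163455 to 26435131, plus strand), the factor through which the cleaved receptors reach DNA, varied little. Over all 36 libraries it ranged from 157 to 196 CPM. R1881 raised it slightly in F2, to 175, 189.7 and 189 CPM, against 165, 167 and 157 CPM with DMSO (log2 0.17, SE 0.05, adjusted p = 0.0214), and in NT3 of LNCaP, to 195, 196 and 189.9 CPM, against 173, 177 and 169 CPM with DMSO (log2 0.15, SE 0.05, adjusted p = 0.0315). These changes were small, and without the filter on low counts the adjusted p was 0.0627 in F2 and 0.172 in NT3. In F2 it was 0.0950 to 0.133 without DMSO replicate 3, R1881 replicate 2 or R1881 replicate 3, and in NT3 0.0597 to 0.145 without DMSO replicate 1 or 3 or any R1881 library. A fit of the F2 libraries alone gave 0.114. In C2 the response was 0.14 (SE 0.05, adjusted p = 0.0885), and it was called by DESeq2 (adjusted p = 0.0435) and without C2 R1881 replicate 3 (0.0250). No guide comparison and no comparison between cell lines was called for RBPJ.

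**Figure D2:**
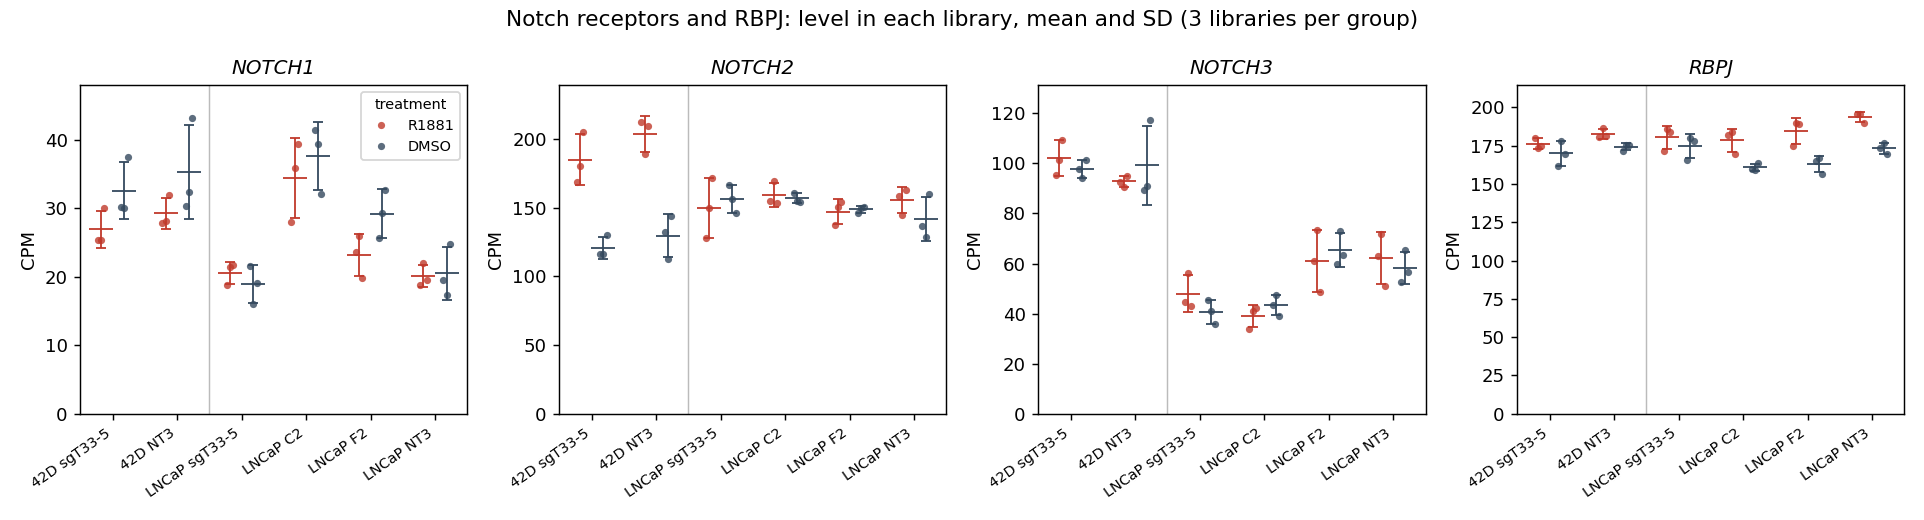
Levels of NOTCH1, NOTCH2, NOTCH3 and RBPJ in CPM, 1 point per library, with the mean and SD of each group of 3; red is R1881, blue is DMSO, and all axes start at 0. NOTCH2 separates the treatments in 42D and not in LNCaP, NOTCH3 separates the cell lines, NOTCH1 is higher in C2, and RBPJ is nearly level.

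RBPJ is known to bind the motif GTGGGAA, and the stretch of 250 bases before the RefSeq start is shown for the targets that hold it. RefSeq promoters (GRCh38.p14) were available for 8 of the 10 members. DLL1 and the target HEY1 had none and were not searched. In the 8, both strands were searched for GTGGGAA, which reads TTCCCAC on the other strand. A match was found for HES1, 85 bases before the start, for HES4, 77 bases before it, and at 1 of 5 starts of RBPJ, with a match on each strand. Over 35116 promoters of the same length, 5.43% held the motif. JAG1, whose guide differences in LNCaP were the largest among the members, is shown beside them and held no match. Neither the full androgen response element, the arm AGAACA followed 3 bases on by TGTTCT (in 1 of 35116 promoters), nor a single arm, AGAACA or TGTTCT (12.4%), was found in any of the 8; this says only that these letters are not in these windows. Capitals mark the RBPJ motif, and each sequence reads 5′ to 3′ on the strand of the gene.
HES1, chr3:194135898-194136147, plus strand: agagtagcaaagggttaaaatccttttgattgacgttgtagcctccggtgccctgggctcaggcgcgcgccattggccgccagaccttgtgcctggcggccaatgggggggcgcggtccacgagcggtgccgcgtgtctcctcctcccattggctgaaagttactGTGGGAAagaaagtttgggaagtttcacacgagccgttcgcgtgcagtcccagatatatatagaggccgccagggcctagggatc
HES4, chr1:1000098-1000347, minus strand: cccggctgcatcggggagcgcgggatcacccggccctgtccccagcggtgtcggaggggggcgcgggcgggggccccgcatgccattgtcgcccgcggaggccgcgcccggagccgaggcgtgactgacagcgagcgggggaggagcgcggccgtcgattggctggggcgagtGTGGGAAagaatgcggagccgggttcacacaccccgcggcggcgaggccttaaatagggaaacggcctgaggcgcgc
JAG1, chr20:10674000-10674249, minus strand: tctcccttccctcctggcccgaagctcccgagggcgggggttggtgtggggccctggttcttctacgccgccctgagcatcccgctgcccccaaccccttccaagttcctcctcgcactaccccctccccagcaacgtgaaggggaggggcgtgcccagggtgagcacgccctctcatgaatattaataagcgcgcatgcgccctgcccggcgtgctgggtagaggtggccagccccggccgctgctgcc

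HES1 (chromosome 3, 194136148 to 194138732, plus strand), a repressor of differentiation genes and the best known Notch target, had the largest fitted R1881 response among the members, in 42D. In 42D it was 41.2, 41.6 and 31.4 CPM in sgT33-5 with R1881, against 6.68, 6.99 and 5.26 CPM with DMSO. In 42D NT3 it was 27.6, 27.0 and 18.4 CPM with R1881, against 5.86, 5.56 and 7.11 CPM with DMSO. The treatments were far apart in both lines. R1881 brought HES1 to 6.05 times the DMSO level in sgT33-5 (log2 2.60, SE 0.18, adjusted p = 1.78e-07) and to 3.98 times in NT3 (log2 1.99, SE 0.19, adjusted p = 4.75e-06). With R1881 the 3 libraries of sgT33-5 lay above those of NT3, by 0.64 (SE 0.15, adjusted p = 0.128). That difference was called by DESeq2 (adjusted p = 0.00186), without the filter on low counts (8.03e-10), without 42D sgT33-5 R1881 replicate 3 (0.0157) and with the replicate number as a block, which pairs these libraries (1.68e-05). Without the filter, edgeR called 222 of all genes in that comparison, against 79 with it. With DMSO the guide line and NT3 overlapped (log2 0.04, SE 0.23, adjusted p = 0.984). The response of sgT33-5 exceeded that of NT3 by 0.60 (SE 0.28, adjusted p = 0.696), which was called only when low-count genes were kept (adjusted p = 0.0300).

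In LNCaP, HES1 was low, with 13 to 50 counts per library and group means of 1.18 to 2.40 CPM. With R1881 it was 2.09, 1.70 and 2.02 CPM in C2, 2.58, 2.73 and 1.85 CPM in F2 and 2.105, 1.80 and 1.94 CPM in NT3. The DMSO level was 2.18, 2.06 and 2.95 CPM in C2, 2.24, 2.39 and 1.67 CPM in F2 and 1.64, 1.72 and 1.68 CPM in NT3. None of these 3 lines was called; the treatments overlapped in C2 and F2 and did not in NT3. The response was called in sgT33-5, at 1.40, 2.33 and 2.73 CPM with R1881, against 1.61, 0.736 and 1.19 CPM with DMSO, although the libraries overlapped (log2 0.88, SE 0.27, adjusted p = 0.0283). That call ended in a fit of the 2 groups alone (adjusted p = 0.101) and without sgT33-5 DMSO replicate 2 (0.208) or 3 (0.0651) or R1881 replicate 2 (0.0922) or 3 (0.150). Among control lines HES1 was 12.4 times as high in 42D as in LNCaP with R1881 (log2 3.64, SE 0.19, adjusted p = 1.33e-18) and 3.67 times as high with DMSO (log2 1.88, SE 0.23, adjusted p = 7.38e-09), and its R1881 response was larger in 42D by 1.76 (SE 0.34, adjusted p = 0.000663).

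HEY1 (chromosome 8, 79762371 to 79767857, minus strand), a repressor of the same protein family, was called higher with R1881 in 5 of 6 lines. In 42D it was 7.01, 5.98 and 6.34 CPM in sgT33-5 with R1881, against 3.74, 2.33 and 3.26 CPM with DMSO, and 5.80, 6.32 and 5.27 CPM in NT3 with R1881, against 3.05, 2.36 and 2.56 CPM with DMSO. The rise was 1.05 (SE 0.16, adjusted p = 2.63e-05) in sgT33-5 and 1.14 (SE 0.17, adjusted p = 2.12e-05) in NT3, with no overlap. In LNCaP, at 8 to 49 counts per library, the level with R1881 was 1.53, 1.57 and 1.34 CPM in sgT33-5, 2.09, 1.42 and 2.47 CPM in C2, 1.84, 1.48 and 1.36 CPM in F2 and 2.04, 1.40 and 1.34 CPM in NT3. The DMSO level was 0.603, 0.623 and 0.687 CPM in sgT33-5, 1.61, 1.004 and 0.782 CPM in C2, 0.846, 0.759 and 0.700 CPM in F2 and 0.760, 1.15 and 0.518 CPM in NT3. The treatments overlapped only in C2. The log2 response was 1.20 (SE 0.32, adjusted p = 0.0115) in sgT33-5, 0.81 (SE 0.26, adjusted p = 0.0661) in C2, 1.01 (SE 0.29, adjusted p = 0.0248) in F2 and 0.99 (SE 0.30, adjusted p = 0.0285) in NT3.

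Each HEY1 call in LNCaP rested on few counts. In sgT33-5 the adjusted p was 0.0643 without the 2 libraries of low mitochondrial share. In F2 it was 0.0720 without DMSO replicate 2, 0.0943 without DMSO replicate 3 and 0.0908 without R1881 replicate 1. In NT3 it was 0.0941 without DMSO replicate 1, 0.163 without DMSO replicate 3, 0.195 without R1881 replicate 1, 0.0567 by DESeq2 and 0.0705 in a fit of the NT3 libraries alone. In C2 the response was called without C2 DMSO replicate 1 (adjusted p = 0.0169) or C2 R1881 replicate 2 (0.0245). HEY1 was higher in 42D than in LNCaP among control lines, by 1.86 (SE 0.20, adjusted p = 4.51e-10) with R1881 and 1.73 (SE 0.27, adjusted p = 5.02e-07) with DMSO, and the size of its response was not called different between them (log2 0.12, SE 0.37, adjusted p = 0.950). No guide line differed from NT3 in HEY1 past the threshold.

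HES4 (chromosome 1, 998962 to 1000172, minus strand) is a HES family member with no counterpart in the mouse. Its window above holds the motif also found for HES1, and any effect of that motif was not tested. In DMSO it was 8.50, 7.31 and 6.56 CPM in C2 and 4.65, 5.96 and 6.46 CPM in F2, against 4.85, 4.02 and 3.82 CPM in NT3. C2 lay above NT3 and F2 overlapped it. HES4 rose in C2 (log2 0.82, SE 0.16, adjusted p = 0.000747) and was not called in F2 (log2 0.43, SE 0.17, adjusted p = 0.0799), where the replicate number as a block, which pairs those libraries, gave an adjusted p of 0.0453 and leaving out F2 DMSO replicate 1 gave 0.0377. With R1881 no guide line was called, with log2 differences of -0.10 to 0.35. The R1881 response was called in no line. The nearest was LNCaP sgT33-5, at 6.51, 5.34 and 5.98 CPM with R1881, against 4.02, 3.62 and 5.06 CPM with DMSO (log2 0.48, SE 0.17, adjusted p = 0.0596), which passed without sgT33-5 DMSO replicate 3, 1 of the 2 libraries of low mitochondrial share (adjusted p = 0.0288). HES4 was the only target whose level did not differ past the threshold between 42D and LNCaP, at 0.03 (SE 0.17, adjusted p = 0.870) with R1881 and -0.09 (SE 0.18, adjusted p = 0.659) with DMSO.

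**Figure D3:**
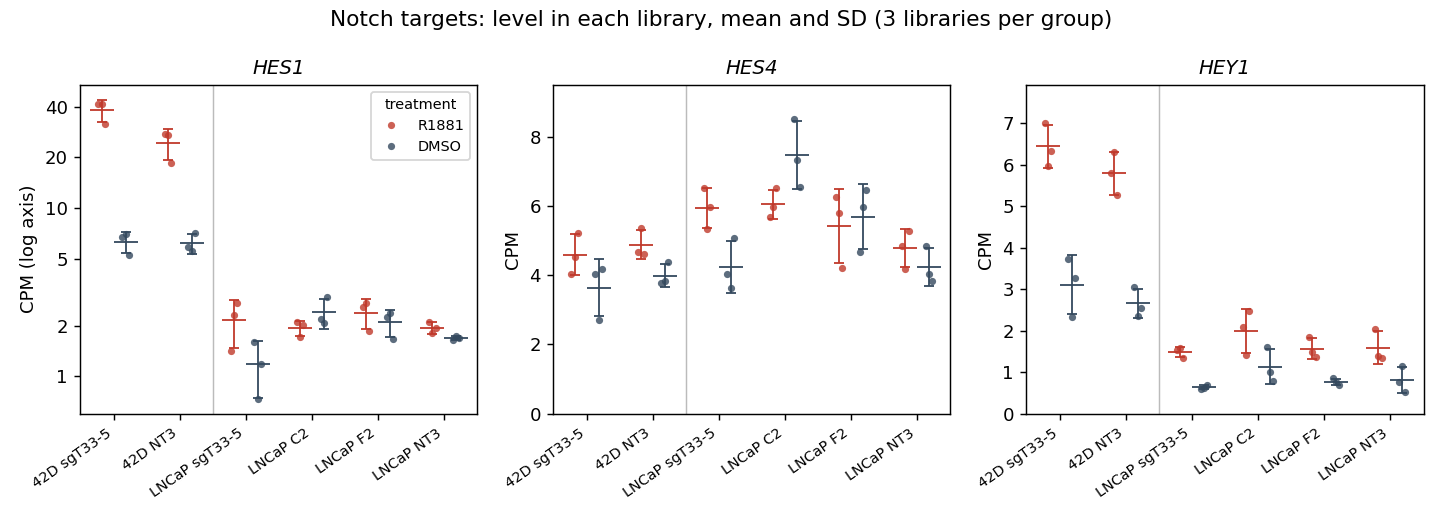
Levels of the Notch targets HES1 (log axis), HES4 and HEY1 in CPM, 1 point per library, with the mean and SD of each group of 3; red is R1881, blue is DMSO. In 42D the R1881 libraries of HES1 stand at 18.4 to 41.6 CPM and those of DMSO at 5.26 to 7.11 CPM, while all LNCaP libraries are under 3 CPM; HEY1 is higher with R1881 in each line on average, and HES4 shows no common order.

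**Figure D4:**
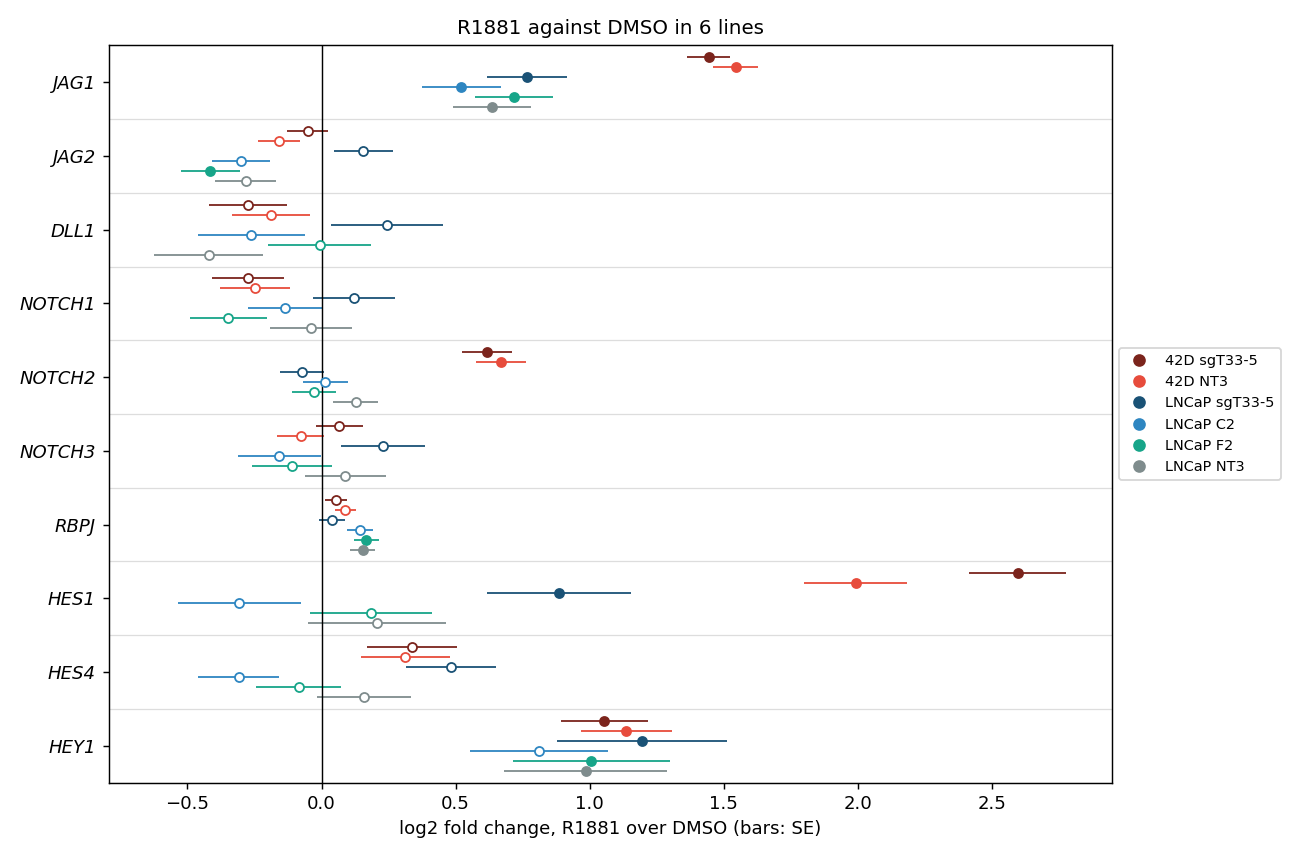
Log2 fold change of R1881 over DMSO for each member in 6 lines, with bars of 1 SE; filled points passed an adjusted p of 0.05 and open points did not. JAG1 is filled in all 6 lines, in LNCaP against DMSO libraries whose JAG1 difference was already known, HEY1 in 5, and NOTCH2 in the 2 lines of 42D, where HES1 reaches 2.60 in sgT33-5 and 1.99 in NT3.

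**Figure D5:**
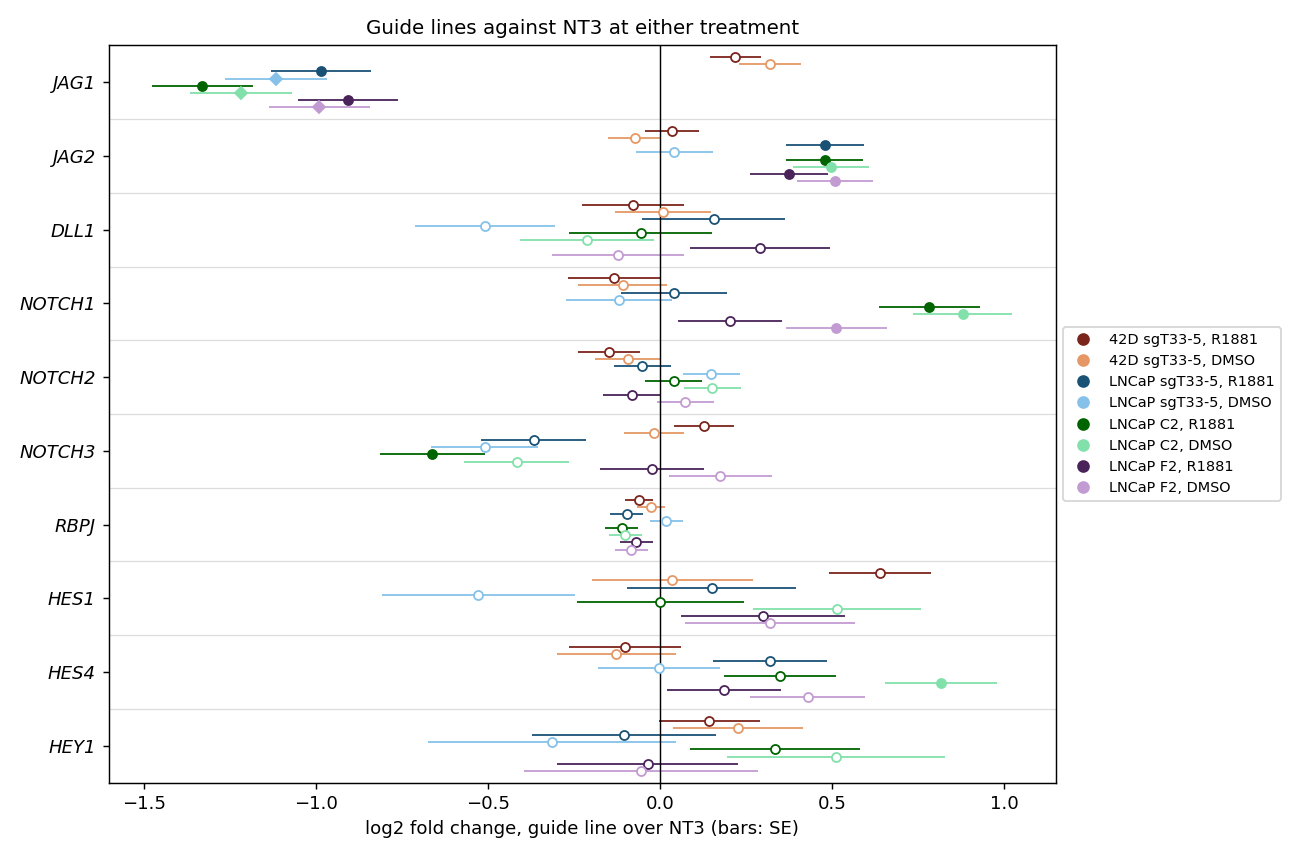
Log2 fold change of each guide line over NT3 at either treatment, with bars of 1 SE; filled points passed an adjusted p of 0.05, open points did not, and diamonds are described with no test. JAG1 lies at -1.33 to -0.91 in the LNCaP lines, where its decrease with DMSO was already known, and at 0.22 and 0.32 in 42D. JAG2 and NOTCH1 are on the right of 0 in C2.

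Levels of different genes were compared as CPM per kilobase of merged exon (GENCODE 29), with no test. In LNCaP NT3 with R1881, JAG1 stood first at 56.1 CPM per kilobase, followed by RBPJ at 20.9, NOTCH2 at 9.26, JAG2 at 8.12 and NOTCH3 at 6.61, and HEY1 stood last at 0.492. The libraries of NOTCH2 and JAG2 overlapped, as did those of JAG2 and NOTCH3, so their order is not settled. In LNCaP NT3 with DMSO, JAG1 at 35.97 CPM per kilobase was again first and RBPJ at 18.7 next, with no overlap. In the guide lines with DMSO, JAG1 and RBPJ were close: 16.5 against 18.9 CPM per kilobase in sgT33-5 and 18.1 against 17.6 in F2, with overlapping libraries, and 15.4 against 17.4 in C2, where RBPJ was higher in every library.

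In 42D the order was different. RBPJ was first in all 4 groups, at 18.4 to 19.8 CPM per kilobase. With R1881, sgT33-5 had HES1 next at 18.5 CPM per kilobase, overlapping RBPJ, and JAG1 in place 5 at 8.31. NT3 with R1881 had NOTCH2 at 12.1, HES1 at 11.8 and NOTCH3 at 9.88, in an order their libraries do not settle, and JAG1 in place 6 at 7.10. With DMSO, NOTCH3 was second in both lines (10.4 in sgT33-5 and 10.6 in NT3), HES1 was at 3.06 and 3.00, and JAG1 was in place 7 at 3.06 in sgT33-5 and in place 9 at 2.46 in NT3, level with DLL1 at 2.47. NOTCH1 had the lowest mean of the receptors per length in all 12 groups, and in C2 with R1881 its libraries overlapped those of NOTCH3, so that order is not settled.

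Of 49 other genes of the pathway, listed by role from general knowledge with earlier results of these libraries known, 40 passed the filter in each cell line and 42 in the fit of both. DLK1 and HEYL had 0 counts in every library. With R1881 against DMSO, 9 of 40 were higher and 5 lower in 42D sgT33-5, and 11 higher and 4 lower in 42D NT3. In LNCaP, 6 were higher and 1 lower in sgT33-5, 4 and 1 in C2, 7 and 4 in F2, and 8 and 1 in NT3. These shares of 35%, 37.5%, 17.5%, 12.5%, 27.5% and 22.5% stand beside the backgrounds of 27.3%, 25.3%, 12.5%, 5.66%, 10.4% and 13.2% given above. The median log2 change of the list was 0.03 in C2 to 0.09 in LNCaP sgT33-5, against -0.01 to 0.00 over all genes tested.

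MAML2, a Mastermind-like coactivator, rose with R1881 in all 6 lines. Its group means with DMSO were 0.592 CPM in 42D NT3 to 1.33 CPM in LNCaP NT3, so the size of the rise rests on few counts. Its level was 2.13, 1.76 and 1.91 CPM with R1881 in 42D sgT33-5, against 0.919, 0.837 and 0.423 CPM with DMSO, and 4.34, 4.79 and 3.67 CPM in LNCaP NT3, against 1.46, 1.22 and 1.29 CPM with DMSO. The groups were well apart, and the log2 rise was 1.41 (SE 0.27, adjusted p = 0.000403) in 42D sgT33-5, 1.32 (SE 0.30, adjusted p = 0.00225) in 42D NT3, 1.11 (SE 0.28, adjusted p = 0.00669) in LNCaP sgT33-5, 1.30 (SE 0.25, adjusted p = 0.00101) in C2, 1.42 (SE 0.28, adjusted p = 0.000835) in F2 and 1.67 (SE 0.24, adjusted p = 8.34e-06) in LNCaP NT3. The LNCaP sgT33-5 call ended without the 2 libraries of low mitochondrial share (adjusted p = 0.0603) and without sgT33-5 DMSO replicate 3 alone (0.0577). With R1881, MAML2 was lower than in NT3 in sgT33-5 (log2 -0.92, SE 0.22, adjusted p = 0.0175), C2 (log2 -0.59, SE 0.20, adjusted p = 0.0379) and F2 (log2 -1.002, SE 0.22, adjusted p = 0.00225). The first call ended without the 2 libraries of low mitochondrial share (adjusted p = 0.0789) or without sgT33-5 replicate 1 or NT3 replicate 1 or 2 (0.0757 to 0.0987), and the second without C2 replicate 2 or 3 or NT3 replicate 1 or 2 (0.0645 to 0.188) and with DESeq2 (0.0660).

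HES6, a HES family member known to favour neuronal differentiation, also rose with R1881 in all 6 lines, by 0.44 in F2 to 0.98 in 42D sgT33-5 on the log2 scale. Its call in C2 ended without C2 DMSO replicate 1 or C2 R1881 replicate 2 or 3 (adjusted p = 0.0649 to 0.0931), and that in F2 without F2 DMSO replicate 1 or 3 or F2 R1881 replicate 2 or 3 (adjusted p = 0.0568 to 0.140). It was lower in 42D than in LNCaP among control lines, at 17.8, 16.5 and 18.3 CPM against 66.8, 76.1 and 54.1 CPM with R1881 (log2 -1.91, SE 0.13, adjusted p = 9.71e-14). HES2, another repressor of the family, rose in 42D to 5.24, 4.91 and 3.50 CPM with R1881, against 0.796, 1.02 and 0.604 CPM with DMSO, in sgT33-5 (log2 2.49, SE 0.26, adjusted p = 1.52e-07), and by 2.74 (SE 0.30, adjusted p = 2.23e-07) in NT3. Its DMSO mean was 0.805 CPM in 42D sgT33-5 and 0.593 CPM in 42D NT3, so the size of these rises rests on few counts. LFNG, a fringe glycosyltransferase that modifies Notch receptors, fell with R1881 in 42D NT3 (log2 -0.73, SE 0.19, adjusted p = 0.0138). It also fell in 42D sgT33-5 and F2, in calls that ended without 42D sgT33-5 DMSO replicate 1 or 2 or R1881 replicate 3 (adjusted p = 0.0562 to 0.0972) and without any F2 library except R1881 replicate 1 (0.0572 to 0.220). DTX4, a Deltex E3 ligase, fell in 42D sgT33-5 (log2 -0.57, SE 0.13, adjusted p = 0.00139) and NT3 (log2 -0.62, SE 0.12, adjusted p = 0.000542). CTBP1, a corepressor, fell in F2 (log2 -0.38, SE 0.07, adjusted p = 0.000412) and LNCaP NT3 (log2 -0.30, SE 0.07, adjusted p = 0.00338), and in C2 in a call that ended without any C2 library except R1881 replicate 3 (0.0995 to 0.269). KDM5A, a histone demethylase that works with RBPJ, fell in LNCaP sgT33-5 (log2 -0.32, SE 0.08, adjusted p = 0.00833), a call that ended without R1881 replicate 1 (0.0788) of low mitochondrial share and without both libraries of low mitochondrial share (0.0751).

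Between guide lines and NT3, edgeR and DESeq2 called 0 of 40 listed genes in 42D with R1881, where 4 had an unadjusted p under 0.05, in 42D with DMSO, where 3 had one, and in LNCaP sgT33-5 with DMSO, where 3 had one. In LNCaP with R1881, 1 was lower in sgT33-5, 6 were higher and 8 lower in C2, and 2 were higher and 3 lower in F2. With DMSO, 2 were higher and 2 lower in C2, and 3 were higher and 1 lower in F2. With R1881 these are shares of 2.5% against a background of 3.04% for sgT33-5, 35% against 23% for C2 and 12.5% against 13.4% for F2. With DMSO they are 10% for C2, against 18.2%, and 10% for F2, against 16.7%. LFNG was higher in C2, by 1.24 (SE 0.24, adjusted p = 0.000617) with R1881 and 1.13 (SE 0.21, adjusted p = 0.000709) with DMSO. So was NEURL1B, a Neuralized E3 ligase of Notch ligands, by 0.58 (SE 0.10, adjusted p = 7.89e-05) with R1881 and 0.72 (SE 0.10, adjusted p = 5.18e-06) with DMSO. DTX3, a Deltex family member, was higher in F2, by 1.68 (SE 0.20, adjusted p = 1.69e-06) with R1881 and 1.50 (SE 0.20, adjusted p = 8.38e-06) with DMSO. POGLUT1, which adds glucose to Notch receptors, was lower there, at -0.47 (SE 0.09, adjusted p = 0.000595) with R1881 and -0.50 (SE 0.09, adjusted p = 0.000262) with DMSO. Also higher in F2 were NRARP, a Notch target that restrains the pathway, with R1881 (log2 0.36, SE 0.08, adjusted p = 0.00286), and DTX2, another Deltex ligase, with DMSO (log2 0.55, SE 0.14, adjusted p = 0.00753). In C2 with R1881, DTX4 was higher (log2 0.63, SE 0.14, adjusted p = 0.00173) and HES2 was lower (log2 -0.99, SE 0.28, adjusted p = 0.0122), the HES2 call ending without NT3 R1881 replicate 2 or C2 R1881 replicate 1 or 3 (adjusted p = 0.0636 to 0.103). Small decreases in C2 with DMSO, of HES6 (log2 -0.40, SE 0.13, adjusted p = 0.0367) and of NCSTN, a subunit of gamma-secretase (log2 -0.14, SE 0.05, adjusted p = 0.0368), ended without NT3 DMSO replicate 2 (adjusted p = 0.142 for HES6 and 0.164 for NCSTN). They also ended without C2 DMSO replicate 1 (0.137 and 0.0830), for HES6 without NT3 DMSO replicate 1 (0.0727) or C2 DMSO replicate 3 (0.0807), and for NCSTN without C2 DMSO replicate 2 (0.0956).

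HEY2 and HES7 were at most 0.997 and 1.40 CPM in any library and are given no fold. Between control lines, 17 of 42 were higher and 11 lower in 42D with R1881, and 20 and 15 with DMSO, shares of 66.7% and 83.3% beside backgrounds of 68.9% and 68.1%. DTX3 stood far apart, at 41.3, 44.7 and 41.9 CPM in 42D with R1881, against 2.61, 2.99 and 2.34 CPM in LNCaP (log2 4.01, SE 0.15, adjusted p = 2.37e-23). NEURL1B responded to R1881 in 42D NT3 (log2 0.67, SE 0.06, adjusted p = 3.72e-09) and not past the threshold in LNCaP NT3 (log2 -0.09, SE 0.10, adjusted p = 0.725).

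The 5 genes most like JAG1 were sought among 11197 genes with a mean of at least 5 CPM, by Pearson correlation of the mean log2 CPM over the 12 groups. They were SMARCD1, a subunit of chromatin remodelling complexes, with r of 0.988, KMT5B, a histone H4 methyltransferase, with 0.982, DNAJC25 with 0.980, ZNF841 with 0.980 and HES6 with 0.973. The points share cell lines, treatments and libraries, so these values describe likeness only. The others moved over a smaller range: SMARCD1 averaged 57.3 CPM in 42D NT3 with R1881 and 49.5 CPM with DMSO, against 77.3 CPM and 71.8 CPM in LNCaP NT3, where JAG1 averaged 66.0 and 22.9 CPM, against 522 and 334 CPM.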

How the data were processed

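RNA from 36 samples was made into stranded polyadenylated libraries and read as paired ends of 51 bases, per the labels' protocols. The authors deposited 1 table of raw counts per gene, with coordinates on GRCh38. Per the submitters' processing notes, reads were trimmed with cutadapt and aligned with HISAT2 2.1.0. The counting tool, its strand setting and its annotation release are not given in the sources used here. The table has 61806 lines, of which 61805 name a gene and the other holds no counts. Totals of 13900744 to 19793268 counts per library set the precision, and counts of a gene under 50 carry wide errors.

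Counts were normalised by TMM and tested with edgeR's quasi-likelihood F test (edgeR 4.0.16, limma 3.58.1, R 4.3.3), all groups of a cell line in 1 fit, after filterByExpr. This left 15519 genes in LNCaP, 15403 in 42D and 16564 in the fit of both. P-values were adjusted over all genes tested in a comparison, with a threshold of 0.05, and 23 comparisons were made. The method was first tested on simulated counts. The alternatives were DESeq2 1.42.0, no filter, the replicate number as a block, a fit of the compared libraries alone, each library left out, and the 2 libraries of low mitochondrial share left out. Levels were also rescaled by relative log expression. Figures were drawn with matplotlib 3.10.9 under Python 3.11.15.

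The members and lists were chosen with earlier results of these data known. Among the other pathway genes, up to 2 of the largest called changes in each direction were named per comparison; a result that this rule would name is not reported here. Merged exon lengths came from GENCODE 29, and promoter sequences from RefSeq.

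The same replicate numbers recur in every group. Libraries of the same number deviated together, with a correlation above 0.1 for every pair, in 6 comparisons: R1881 against DMSO in 42D sgT33-5, 42D NT3 and LNCaP F2, sgT33-5 against NT3 with R1881 in 42D and in LNCaP, and F2 against NT3 with DMSO. The pairing comes from these data and is not stated in the labels. In each other comparison at least 1 pair fell short of 0.1. Even so, every 42D library and 23 of 24 in LNCaP correlated best with its own number, so the likeness is not confined to these 6. Values with the block stand beside the results of the 6 where a call changed. Among calls outside them, the block called NOTCH3 lower than in NT3 with DMSO in LNCaP sgT33-5 (adjusted p = 0.0102) and C2 (0.00734). It also called the C2 responses of HEY1 (0.0261) and RBPJ (0.0229) and the LNCaP sgT33-5 response of HES4 (0.0335).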

Additional observations from a re-analysis of the deposited data

Results flagged for a closer look

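Some R1881 responses differed between 42D and LNCaP with the control guide, by a test of the difference itself in the edgeR fit of both cell lines. JAG1 responded more in 42D by 0.88 (SE 0.20, adjusted p = 0.00970), NOTCH2 by 0.52 (SE 0.13, adjusted p = 0.0165) and HES1 by 1.76 (SE 0.34, adjusted p = 0.000663), on the log2 scale. The JAG1 p-value is not independent of the choice of genes, since the LNCaP NT3 DMSO libraries were part of the known result. Without LNCaP NT3 DMSO replicate 3 or LNCaP NT3 R1881 replicate 2 the adjusted p for NOTCH2 was 0.0666 and 0.0525. Among the other pathway genes, HES2 responded more in 42D by 1.94 (SE 0.46, adjusted p = 0.00857), a call that ended without 42D NT3 DMSO replicate 1 (adjusted p = 0.0557), and NEURL1B by 0.73 (SE 0.12, adjusted p = 0.000119).

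The effect of sgT33-5 with R1881 also differed between the cell lines by the same kind of test. For JAG1 it was higher in 42D by 1.22 (SE 0.19, adjusted p = 0.000574), being 0.22 in 42D and -0.99 in LNCaP. Since the LNCaP decrease was already known in DMSO, that p-value is not independent of the choice of genes. For MAML2 the effect was higher in 42D by 1.32 (SE 0.33, adjusted p = 0.0280), being 0.38 in 42D and -0.92 in LNCaP. The MAML2 call ended without the 2 LNCaP libraries of low mitochondrial share (adjusted p = 0.0641) and without any 1 of 8 libraries (0.0560 to 0.0991). These were LNCaP NT3 R1881 replicates 1 and 2, LNCaP sgT33-5 R1881 replicate 1, all 3 of 42D NT3 R1881, and 42D sgT33-5 R1881 replicates 1 and 3.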

How the results depend on the processing

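No value called in either run changed direction under any alternative. Of the members' values under the alternatives, 2917 stayed on their side of the threshold, 44 passed it only under an alternative and 48 lost the call. Changes of sign between uncalled values were not counted, so the 2917 may hold some. The 1 value marked as moved was JAG1 in C2 against NT3 with DMSO, described with no test. It went from -1.22 to -1.32 without NT3 DMSO replicate 3. Rescaling by relative log expression moved 0 of 120 group levels by more than 1 SD.

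The number of members called moved by over 1.5 times in these cases. With DESeq2 it was 2 for the LNCaP C2 response, 1 for sgT33-5 against NT3 in LNCaP with DMSO and 1 in 42D with R1881. Without the filter on low counts it was 2 for sgT33-5 against NT3 in 42D with R1881, 1 with DMSO, 1 for the difference of their R1881 responses, 3 for the sgT33-5 effect between cell lines with R1881 and 1 with DMSO. With the replicate number as a block it was 3 for the LNCaP C2 response, 2 for sgT33-5 against NT3 in 42D with R1881, 1 with DMSO and 1 in LNCaP with DMSO, and the calls it changed in paired comparisons stand in the report. With only the libraries compared it was 1 for F2 against NT3 with R1881 and 1 for LNCaP sgT33-5 against NT3 with DMSO. Without the 2 libraries of low mitochondrial share it was 1 for LNCaP sgT33-5 against NT3 with R1881. With each library left out it ran from 1 to 4 for the F2 response, 0 to 2 for C2, 1 to 3 for LNCaP NT3, 1 to 2 for sgT33-5 and for F2 against NT3 with R1881, 1 to 3 for F2 with DMSO, and 0 to 1 in 42D with R1881 and with DMSO.

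Counts over all genes moved more. With the block, edgeR called 331 against 79 for sgT33-5 over NT3 in 42D with R1881 and 665 against 174 with DMSO, 1264 against 472 in LNCaP with R1881 and 774 against 217 with DMSO, and 3345 against 2087 for F2 with R1881 and 3926 against 2587 with DMSO. It called 2985 against 1936 for the LNCaP sgT33-5 response, 1398 against 879 for C2 and 2455 against 1611 for F2. With only the libraries compared it called 194 for LNCaP sgT33-5 against NT3 with R1881, 1178 for F2, and 140 against 218 for the sgT33-5 effect between cell lines. Without the 2 libraries of low mitochondrial share these sgT33-5 counts were 188 with R1881 and 128 with DMSO, and the effect between cell lines with DMSO was 74 against 132. With each library left out the counts against NT3 ran from 198 to 497 for LNCaP sgT33-5 with R1881 and 106 to 170 with DMSO, 43 to 74 and 66 to 244 in 42D, 1841 to 2478 for C2 (2818 with all) and 1524 to 2343 for F2, both with DMSO. Those for the sgT33-5 effect between cell lines ran from 135 to 246 with R1881 and 61 to 188 with DMSO. Those for the difference of R1881 responses ran from 5 to 92 (19 with all) in 42D, 64 to 107 (107 with all) for C2 and 0 to 3 (0 with all) for F2. Without the filter on low counts edgeR called 222 and 438 for sgT33-5 against NT3 in 42D with R1881 and DMSO, 743 and 391 in LNCaP, and 365 and 459 for the effect between cell lines. The difference of R1881 responses then had 168 calls in 42D, 26 for LNCaP sgT33-5 (0 with the filter), 191 for C2 and 19 for F2. With the block it had 196, 22, 326 and 17, the response between control lines 1033 against 638, and the effect between cell lines 543 with R1881 and 355 with DMSO. Every library of 42D and 23 of 24 in LNCaP correlated best with its own number.

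Counting error limits HES1 and HEY1 in LNCaP, at 8 to 50 counts per library. Among the other pathway genes it limits HES2 and MAML2, whose DMSO means in 42D NT3 were 0.593 and 0.592 CPM.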
